A study of Mus musculus with 14 samples.

Results

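Caveolae are small flask-shaped pits of the endothelial plasma membrane, and the genes described here include ones that build them, shape them or close their openings. They were taken by name from the target list of a mouse amplicon panel: Plvap and Cd34, for 2 surface glycoproteins of endothelium, Cav1 and Cav2, for the caveolins, and Ehd2, Ehd3, Ehd4 and Pacsin2, for proteins that bend or hold membrane. All 8 were present among the 23930 targets counted, each as 1 transcript, and all 8 had enough reads to be tested among 15184 targets.

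Liver sinusoidal endothelial cells (LSECs) line the blood capillaries of the liver. They were sorted by flow cytometry with a gate of low CD45, a leukocyte surface protein, and high STAB2 and CD146, a scavenger receptor and an endothelial adhesion protein, and their RNA was read as amplicon counts. The 14 libraries came from wild-type female C57BL/6J mice, 7 from aged mice of 10 to 11 months and 7 from young mice of 8 to 10 weeks, in 2 experiments. Experiment 1 set 3 aged against 3 young libraries, and experiment 2 set 4 against 4. Names give the age, the experiment and the number within it, so aged 2.1 is the aged library with number 1 in experiment 2.

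Most endothelia carry caveolae, whose coat is built from caveolin-1 and caveolin-2 on the inner face of the membrane. EHD proteins are ATPases that assemble on membranes: EHD2 sits at the neck of a caveola and holds it at the surface, while the other family members are best known for endosomal recycling, and the F-BAR protein PACSIN2 helps to curve the neck. PLVAP forms the thin diaphragms that span the openings of caveolae, transendothelial channels and diaphragmed fenestrae. LSECs differ from other capillary cells in that their adult fenestrae are open and lack diaphragms, and CD34 is a surface sialomucin that most capillary endothelium carries and LSECs carry little of.

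Promoter windows from RefSeq (GRCm38.p6) were found for 7 of the 8 genes, 10 windows in all, each from 250 bases before to 50 bases after an annotated start. The build behind the counts is not given in the sources used here, so these windows belong to the genes by name and not to the measured amplicons. The windows of Cav1 and Cav2 are shown because these genes are direct neighbours on chromosome 6 and their levels are compared below, and that of Ehd3 because its amplicon had the most reads of the 8. Capitals mark GC boxes (GGGCGG on either strand) and CCAAT boxes (CCAAT on either strand). The windows are chr6:17306085-17306384, plus strand, for Cav1, chr6:17280935-17281234, plus strand, for Cav2, and chr17:73804591-73804890, plus strand, for Ehd3.
Cav1: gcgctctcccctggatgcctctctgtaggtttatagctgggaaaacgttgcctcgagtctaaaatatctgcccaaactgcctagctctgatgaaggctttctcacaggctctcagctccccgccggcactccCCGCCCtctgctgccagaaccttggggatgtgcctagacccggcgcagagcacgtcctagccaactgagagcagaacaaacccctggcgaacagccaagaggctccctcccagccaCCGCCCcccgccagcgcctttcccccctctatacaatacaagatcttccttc
Cav2: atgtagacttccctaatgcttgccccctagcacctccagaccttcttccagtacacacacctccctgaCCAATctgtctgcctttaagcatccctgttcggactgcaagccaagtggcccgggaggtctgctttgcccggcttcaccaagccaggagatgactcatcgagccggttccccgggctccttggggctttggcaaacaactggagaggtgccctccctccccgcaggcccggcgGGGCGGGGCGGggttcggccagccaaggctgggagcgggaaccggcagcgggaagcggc
Ehd3: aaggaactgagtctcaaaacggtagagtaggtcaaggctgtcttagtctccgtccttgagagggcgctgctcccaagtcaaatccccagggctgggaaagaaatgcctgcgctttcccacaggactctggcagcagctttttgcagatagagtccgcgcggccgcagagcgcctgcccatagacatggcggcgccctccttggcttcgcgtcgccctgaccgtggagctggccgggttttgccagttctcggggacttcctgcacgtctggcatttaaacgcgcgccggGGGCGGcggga

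The Cav2 window held 2 GC boxes at the start, the second of them running across it, and 1 CCAAT box. The Cav1 window shown held 2 GC boxes and no CCAAT box, and the other Cav1 window, chr6:17307390-17307689 on the plus strand, held none of the motifs searched. The Ehd3 window held 1 GC box after the start. Over the 10 windows, a GC box was present in 6 and a CCAAT box in 5, against 35.7% and 37.4% of all 32851 RefSeq windows of the same length. The GATA letters AGATAA were in 1 of the 10 windows, a downstream window of Pacsin2, against 11.2% of all windows. The ETS letters CCGGAAG and the SOX letters ACAAAG were in 0 of 10, against 8.86% and 18.7% of all windows. All letters were searched on both strands, so CCGCCC in the Cav1 window is a GC box on the minus strand, and the 2 GC boxes of Cav2 overlap by 1 base. These are letter matches and not measured binding. The GC content was 59.3% for the Cav1 window shown, 64.3% for Cav2 and 61.7% for Ehd3, against a median of 52.7% over all windows.

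Gene reads per library ranged from 6710403 to 13977361, and Stab2, the gene of the sorted receptor, ranged over libraries from 1889 to 2208 CPM. CPM are reads scaled to a common library size, here by library totals alone, and elsewhere with TMM (a trimmed mean of ratios between libraries). Whether each library is a separate mouse is not in the labels. The p-values of the age comparison set its difference against the spread between these libraries, and part of that spread may be technical. They need not hold for other mice. Targets of odour, pheromone and taste receptors, genes of sensory cells, took 0.146 to 3.18% of gene reads. Leukocyte marker RNA was mostly higher in aged libraries, with overlap and no gene called. The summed level of 35 leukocyte genes had a minimum, median and maximum of 126, 971 and 2665 CPM in aged libraries, against 112, 220 and 816 CPM in young libraries, and 31 of the 33 that could be tested were higher in aged libraries, against 54.4% of all targets tested. At an unadjusted p under 0.05, 17 of the 33 were higher, against 4.41% of all targets, and 0 were called.

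The library young 2.4 stood apart in the genes described here, which was seen only after its values were known. Scaled by library totals alone, it had the highest level of 3 of the 8 genes and the lowest of 1. Plvap stood at 1514 CPM there, against 427 to 992 CPM in the other 13 libraries, Ehd2 at 21.7 against 1.32 to 16.5 CPM while Cd34 stood at 59.96, against 24.2 to 45.8 CPM. Ehd3 stood at 2042 CPM there, against 3163 to 4754 CPM in the others. The same library was above all others for 5 of 11 markers of large-vessel endothelium: the clotting factor carrier Vwf at 296 CPM against 3.31 to 70.8 CPM, the vasoconstrictor peptide Edn1 at 41.0 against 0.827 to 20.9 CPM, the adhesion receptor Selp at 51.9 against 3.75 to 40.7 CPM, the matrix protein Mgp at 24.4 against 0 to 16.1 CPM and the kinase Bmx at 3.98 against 0 to 2.43 CPM. It was not highest for the other 6, among them the arterial genes Efnb2, Gja4, Hey1 and Dll4. Of 18 LSEC markers it was highest for 2, Lyve1 among them, and lowest for 3, Clec4g among them. Aged 1.3 was the next highest library for Vwf, Edn1, Selp and Mgp, and it had the highest mean log2 level of the leukocyte markers. The part of large-vessel RNA in the levels of the genes described here was not tested. Over all targets other libraries stood further apart. Within their age and experiment, aged 2.4 had a Pearson's r of log2 CPM of 0.754 to 0.821 with the others and young 2.2 had 0.844 to 0.929. Pairs without them had 0.894 to 0.984. Young 2.2 and aged 2.4 carried more sensory receptor reads (2.93% and 2.82%) than the rest of experiment 2, and experiment 1 had 1.20 to 3.18%. On the main axis of variation over the other targets (first principal component, 54.9% of variance) they stood at −59.6 and −68.8. Libraries of experiment 1 spanned −82.2 to −8.95 there, and the rest of experiment 2 spanned 18.4 to 121. That axis thus cut across the experiment term of the fit, for reasons that were not tested. Aged 1.1 and aged 1.2 were the closest pair, with a chi-square per degree of freedom of 6.35, against 19.6 to 124 for the other pairs. That exceeds sampling noise, so both were counted, and fits with them summed are given as an alternative. In sorted samples read in bulk, fewer cells of a type and less RNA per cell cannot be told apart.

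**Figure D1:**
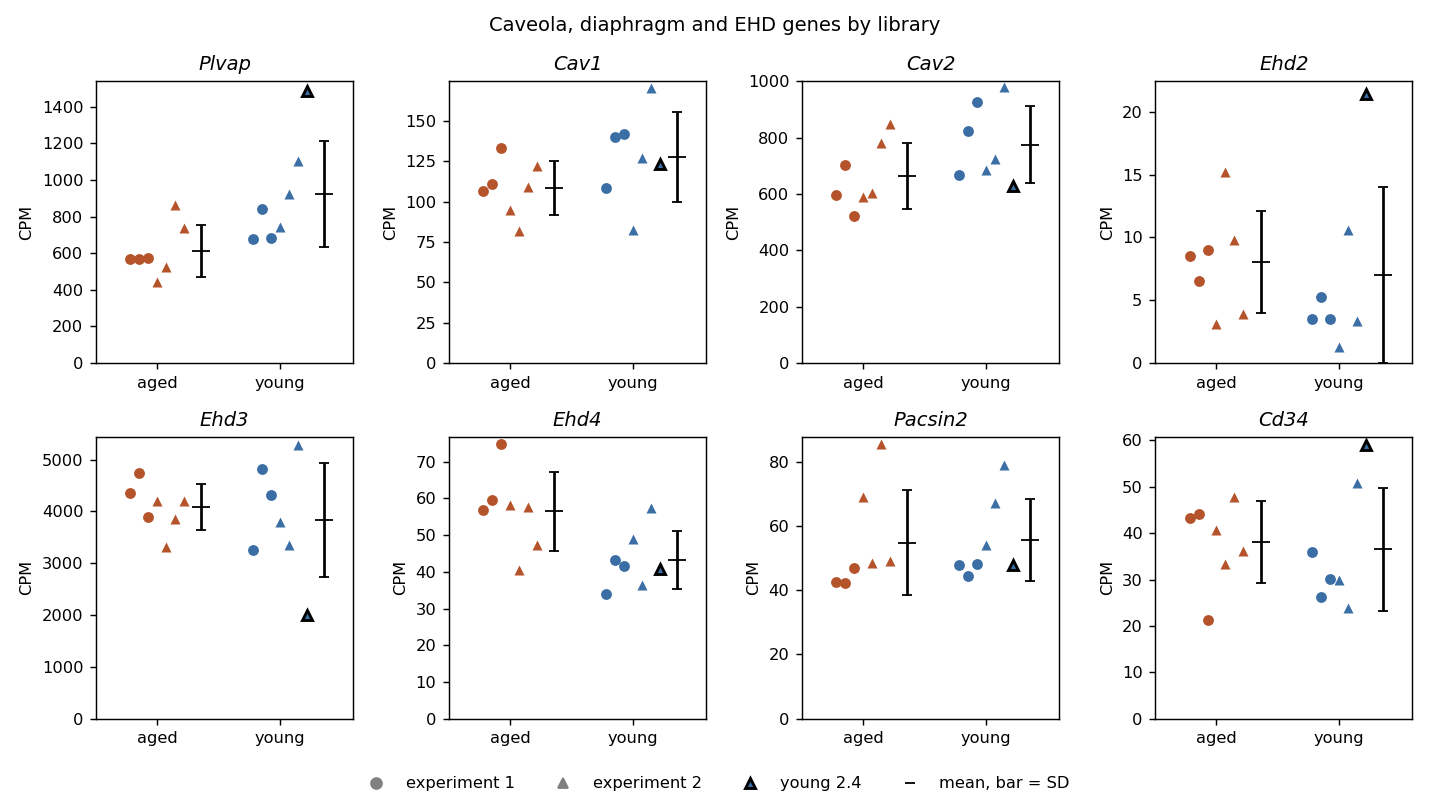
Level of each of the 8 genes in every library, in CPM after TMM scaling, aged on the left and young on the right of each panel, with circles for experiment 1, triangles for experiment 2 and the outlined triangle for young 2.4; the horizontal mark is the mean of 7 libraries and the bar its SD. Aged libraries lie low for Plvap and high for Ehd4, and young 2.4 is the highest point for Plvap, Ehd2 and Cd34 and the lowest for Ehd3.

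None of the 8 genes passed the test over all targets. Aged was compared with young by edgeR's quasi-likelihood F test with the experiment as a term, and calls needed a p under 0.05 after Benjamini-Hochberg adjustment. Of all 15184 targets tested, 34 were called, or 0.224%, and of the 8 genes 0 were called. At an unadjusted p under 0.05, 2 of the 8 passed, Plvap and Ehd4, against 7.40% of all targets tested. The fold change was below 0 for 4 genes and above 0 for 4, with a median log2 fold change of 0.02, the same as the median of 0.02 over all targets. The sign was the same in both experiments for 5 of the 8.

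**Figure D2:**
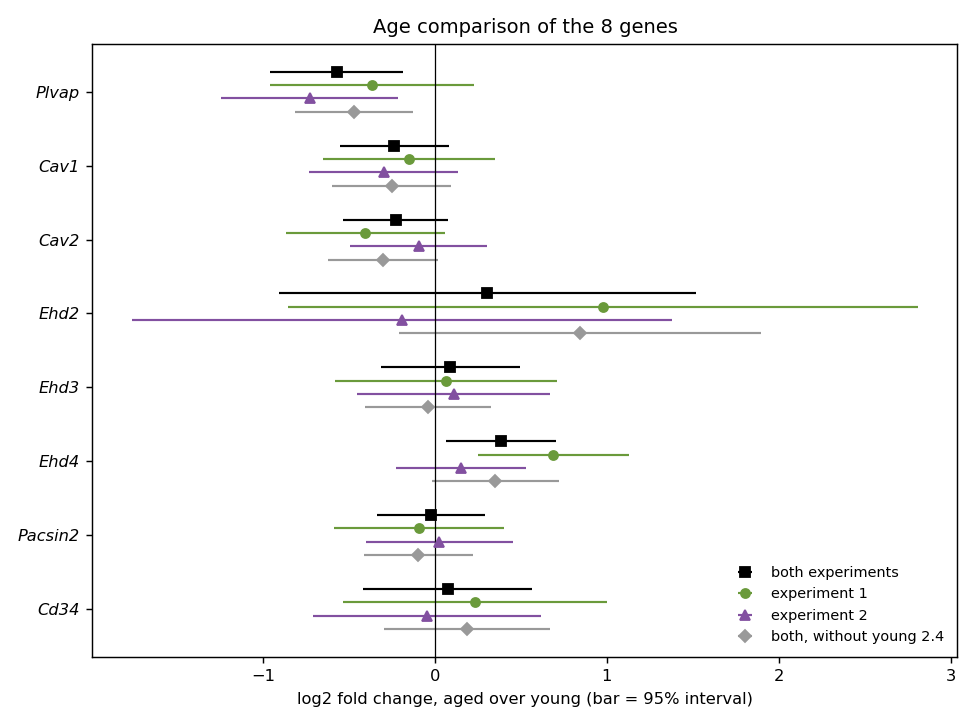
Log2 fold change of aged over young with its 95% interval for each of the 8 genes, over both experiments (black squares), in experiment 1 (green circles), in experiment 2 (purple triangles) and over both without young 2.4 (grey diamonds). The interval over both experiments lies below 0 for Plvap and above 0 for Ehd4 and spans 0 for the other 6, and the interval of Ehd2 is the widest.

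Plvap, the diaphragm protein gene, was the farthest from 0 by its p among the 8. In aged libraries it stood at 571, 570 and 573 CPM in experiment 1 and at 446, 523, 862 and 739 CPM in experiment 2. In young libraries it stood at 681, 844 and 682 CPM in experiment 1 and at 741, 925, 1102 and 1489 CPM in experiment 2. In experiment 1 every aged library was below every young one, with the 3 aged libraries within 4 CPM of each other. Scaled by library totals alone, those 3 stood at 558, 563 and 653 CPM, and young 1.1 at 660 CPM. How many of all targets separated by age in experiment 1 is not given here. In experiment 2 the groups overlapped through aged 2.3, which was above young 2.1, and both ages spread about as widely for their level. By library totals alone, aged 2.4 (768 CPM) was above young 2.1 (758 CPM) as well.

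The mean of Plvap was 612 ± 141 CPM in aged libraries against 923 ± 291 CPM in young ones (SD, n = 7 libraries per age). The fitted level was 1.49-fold lower in aged libraries, with a log2 fold change of −0.57 (SE 0.18, 95% interval −0.96 to −0.18, unadjusted p = 0.00613 and Benjamini-Hochberg adjusted p = 0.448 in edgeR). By its p it stood at rank 207 of 15184, and 1.36% of targets had a smaller p. Each of the 7 aged libraries was below the young mean of its experiment, and an exact two-sided permutation test of log2 CPM within experiments gave p = 0.00286, where 0.00143 is the smallest it can give. The log2 fold change was −0.36 in experiment 1 and −0.73 in experiment 2, and the difference between both, −0.36 (SE 0.36), had an unadjusted p of 0.326. Without young 2.4 it was −0.47 (unadjusted p = 0.0101, adjusted p = 0.775 in edgeR), with an exact permutation p of 0.00714.

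Levels of several of the genes correlated with the leukocyte markers, most of them negatively. Across the 14 libraries log2 CPM had a Pearson's r with the mean log2 level of those markers of −0.61 for Plvap, −0.64 for Cav2, −0.45 for Cd34, −0.44 for Cav1 and 0.48 for Ehd4. It was between 0.07 and 0.12 for the other 3, as a description over libraries that differ in depth. Spearman's rho was −0.49 for Plvap, −0.58 for Cav2, −0.38 for Cd34, −0.46 for Cav1 and 0.36 for Ehd4. The marker score was itself higher in aged libraries, at a centred mean of 0.67 against −0.67 in young ones, so these values are not free of age. With that score as a further term the log2 fold change of Plvap was −0.39 (unadjusted p = 0.0612), that of Cav2 −0.09 and that of Cav1 −0.16. The part of the other cells in the results was not tested beyond these values.

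Cd34, the second surface glycoprotein, had 168 to 609 reads per library. It stood at 43.3, 44.1 and 21.3 CPM in aged libraries of experiment 1 and at 40.6, 33.4, 47.9 and 36.2 CPM in those of experiment 2. Young libraries had 35.9, 26.3 and 30.2 CPM in experiment 1 and 29.9, 23.8, 50.9 and 59.0 CPM in experiment 2. The groups overlapped in both experiments, with the lowest of all 14 in the aged group and the 2 highest in the young group. Its log2 fold change was 0.07 (SE 0.22, 95% interval −0.42 to 0.56, adjusted p = 1.0 in edgeR), so that a change of up to 1.48-fold upwards or to 0.749 of the young level lies within the interval. It was 0.23 in experiment 1 and −0.05 in experiment 2. Without young 2.4 it was 0.19, and with a term for leukocyte markers 0.39 (unadjusted p = 0.0955).

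The ratio of the 2 surface glycoprotein genes within each library does not depend on library scaling. Log2 of Cd34 over Plvap averaged −4.01 ± 0.44 in aged and −4.68 ± 0.35 in young libraries (SD, n = 7 each), a difference of 0.66 with an exact permutation p of 0.0157, or 0.11 after Benjamini-Hochberg adjustment over the 7 ratios computed. Without young 2.4 the difference was 0.67 with an exact permutation p of 0.0271. With adjustment the ratio did not pass 0.05.

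The other endothelial sialomucins were measured alongside. Endomucin (Emcn) averaged 436 ± 89.4 CPM in aged libraries against 514 ± 53.1 CPM in young ones (SD), with a log2 fold change of −0.25 (unadjusted p = 0.0739 in edgeR). Podocalyxin (Podxl), at −0.16, and Cd164, at −0.11, had unadjusted p-values of 0.324 and 0.615. All 3 tested were below 0 in log2 fold change and 0 were called.

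Cav1, the structural protein without which caveolae do not form, stood at 106, 111 and 133 CPM in aged libraries of experiment 1 and at 95, 82.0, 109 and 122 CPM in those of experiment 2. Young libraries had 108, 140 and 142 CPM in experiment 1 and 82.3, 127, 170 and 123 CPM in experiment 2. The groups overlapped in both experiments, and in 5 of 7 aged libraries the level was under the young mean of the same experiment. The means were 108 ± 16.9 CPM in aged libraries against 127 ± 27.8 CPM in young ones (SD, n = 7 each). The log2 fold change was −0.24 (SE 0.14, 95% interval −0.55 to 0.08, unadjusted p = 0.127, adjusted p = 0.873 in edgeR), with −0.15 in experiment 1 and −0.30 in experiment 2. Without young 2.3, where Cav1 was highest, it was −0.13, and without young 2.4 −0.25.

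Cav2, the partner that needs caveolin-1 to reach the surface, stood at 597, 703 and 523 CPM in aged libraries of experiment 1 and at 589, 605, 781 and 849 CPM in those of experiment 2. Young libraries had 666, 822 and 925 CPM in experiment 1 and 685, 725, 979 and 627 CPM in experiment 2. In experiment 1 only aged 1.2 reached into the young range, while in experiment 2 the groups overlapped widely. The means were 664 ± 117 CPM in aged libraries against 776 ± 136 CPM in young ones (SD, n = 7 each). The log2 fold change was −0.23 (SE 0.14, 95% interval −0.53 to 0.08, unadjusted p = 0.122, adjusted p = 0.864 in edgeR), with −0.41 in experiment 1 and −0.10 in experiment 2. Without young 2.4 it was −0.30. The intervals of both caveolins leave room for a level in aged libraries down to 0.681 of that in young for Cav1 and 0.691 for Cav2.

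Over both experiments the fold changes of both caveolin genes were close, while within each they were not. Log2 of Cav1 over Cav2 averaged −2.61 ± 0.31 in aged and −2.62 ± 0.22 in young libraries (SD, n = 7 each), a difference of 0.01 (exact permutation p = 0.959). The difference was 0.25 in experiment 1 and −0.18 in experiment 2, and the contrast between experiments was not tested for the ratio. The amplicons have primers of their own, so this ratio says nothing of how many molecules of each there were. Across the 14 libraries the log2 CPM of both genes had a Pearson's r of 0.58 (permutation p = 0.0313) and a Spearman's rho of 0.59 (permutation p = 0.0303), 1 of 28 pairs computed, with a Benjamini-Hochberg adjusted p of 0.523 for r and 0.363 for rho. Within experiments r was 0.47 in experiment 1 and 0.75 in experiment 2, and within ages it was 0.15 in aged and 0.75 in young libraries. Without aged 2.2 and young 2.3, the libraries farthest from the median of Cav1, r was 0.35, so the relation rests in part on them.

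Plvap was also set against Cav1 within each library. Log2 of Plvap over Cav1 averaged 2.48 ± 0.30 in aged and 2.83 ± 0.43 in young libraries (SD, n = 7 each), a difference of −0.35 (exact permutation p = 0.0371, or 0.13 adjusted over the 7 ratios). Without young 2.4, where this ratio was highest, the difference was −0.25 with an exact permutation p of 0.0814. Of the other ratios, that of Ehd3 over Ehd4 differed by −0.24 (exact permutation p = 0.223), by −0.60 in experiment 1 and 0.03 in experiment 2. Without young 2.4 the difference was −0.38 (exact permutation p = 0.0129, not adjusted over the 7 ratios). That library had the lowest Ehd3 of all and was left out after its values were seen, so the p without it cannot count as a test. Ehd3 over Ehd2 differed by −0.40 (exact permutation p = 0.583) and Pacsin2 over Cav1 by 0.18 (exact permutation p = 0.286).

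Ehd2, the ATPase at the caveola neck, had the fewest reads of the 8 genes, 18 to 202 per library. It stood at 8.50, 6.55 and 9.04 CPM in aged libraries of experiment 1 and at 3.13, 15.2, 9.83 and 3.88 CPM in those of experiment 2. Young libraries had 3.52, 5.24 and 3.47 CPM in experiment 1 and 1.29, 10.6, 3.36 and 21.4 CPM in experiment 2. In experiment 1 every aged library was above every young one, a separation for which the share over all targets is not given here. In experiment 2 young 2.1 was the lowest and young 2.4 the highest of all libraries. The young libraries of experiment 2 differed 16.5-fold among themselves, and their SD was 99.0% of their mean.

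The log2 fold change of Ehd2 was 0.30 (SE 0.55, 95% interval −0.91 to 1.52, unadjusted p = 0.590, adjusted p = 1.0 in edgeR). It was 0.98 in experiment 1 and −0.19 in experiment 2, and the difference, −1.17 (SE 1.10), had an unadjusted p of 0.306. The value over both experiments was 0.84 without young 2.4 and 0.022 without aged 2.2, so it rests on single libraries. Log2 of Ehd2 over Cav1 differed by 0.76 between aged and young (exact permutation p = 0.224), and by 1.12 without young 2.4 (exact permutation p = 0.05). Young 2.4 had the highest Ehd2 of all libraries and was left out after its values were seen, so the second p cannot count as a test.

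Ehd3, which in other cells acts in the return of receptors from early endosomes, had one of the highest counts of the panel, rank 13 of all targets by mean CPM, although each amplicon has its own primers and ranks between genes carry that limit. It stood at 4352, 4740 and 3890 CPM in aged libraries of experiment 1 and at 4195, 3323, 3860 and 4196 CPM in those of experiment 2. Young libraries had 3260, 4815 and 4326 CPM in experiment 1 and 3804, 3355, 5282 and 2008 CPM in experiment 2. The aged libraries lay inside the range of the young ones. Their means were 4080 ± 446 CPM in aged libraries against 3836 ± 1095 CPM in young ones (SD, n = 7 each).

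The log2 fold change of Ehd3 was 0.09 (SE 0.18, 95% interval −0.32 to 0.50, adjusted p = 1.0 in edgeR), with 0.07 in experiment 1 and 0.11 in experiment 2. Without young 2.4 the sign turned, at −0.04, and the interval over all libraries reaches from 0.803 to 1.41 times the young level. Across libraries Ehd2 and Ehd3 had a Pearson's r of −0.55 (permutation p = 0.0414, adjusted p = 0.523 over 28 pairs) and a Spearman's rho of −0.43 (permutation p = 0.129). This r was 0.30 in experiment 1 and −0.70 in experiment 2, and −0.28 without young 2.4.

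Ehd4, a family member that acts on early endosomes, stood at 56.9, 59.7 and 74.8 CPM in aged libraries of experiment 1 and at 58.3, 40.6, 57.6 and 47.4 CPM in those of experiment 2. Young libraries had 34.0, 43.2 and 41.7 CPM in experiment 1 and 48.9, 36.4, 57.5 and 40.8 CPM in experiment 2. In experiment 1 every aged library was above every young one, again without the share over all targets beside it. In experiment 2 the groups overlapped over most of their range. The means were 56.5 ± 10.7 CPM in aged libraries against 43.2 ± 7.90 CPM in young ones (SD, n = 7 each).

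The level of Ehd4 was 1.30-fold higher in aged libraries, with a log2 fold change of 0.38 (SE 0.15, 95% interval 0.06 to 0.70, unadjusted p = 0.0200, adjusted p = 0.586 in edgeR). An exact permutation test within experiments gave p = 0.0343, and 6 of 7 aged libraries were above the young mean of their experiment. In experiment 1 the log2 fold change was 0.69 (unadjusted p = 0.00455, adjusted p = 0.711) and in experiment 2 it was 0.15 (unadjusted p = 0.394). The difference between experiments was −0.54 (SE 0.26) with an unadjusted p of 0.0638. Without young 2.4 the fold change over both experiments was 0.35 (unadjusted p = 0.0554), and with the leukocyte score as a term it was 0.30 (unadjusted p = 0.0954). Without aged 1.3, the highest library for Ehd4, it was 0.30 (unadjusted p = 0.0464).

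Within experiment 1, 0 of the 8 genes were called, against 0.00% of all targets, and in this model of 4 means Ehd4 was the gene of the 8 with an unadjusted p under 0.05, against 6.65% of all targets. With experiment 1 fitted alone, Ehd2 passed that threshold too (log2 fold change 0.94, unadjusted p = 0.0234, adjusted p = 0.519) beside Ehd4 (0.66, unadjusted p = 0.0122). In that fit 1274 of 14485 targets had an unadjusted p under 0.05. Within experiment 2, 0 of the 8 were called, against 0.0198% of all targets, and Plvap was the gene with an unadjusted p under 0.05 (unadjusted p = 0.00848), against 3.42% of all targets. The difference between experiments was called for 0 of the 8 and for 0.00% of all targets in edgeR and had an unadjusted p under 0.05 for 2.44% of all targets. Limma-voom called 0 differences and DESeq2 called 1 among all targets.

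Pacsin2, the membrane-curving adaptor, stood at 42.5, 42.1 and 47.0 CPM in aged libraries of experiment 1 and at 69.1, 48.3, 85.5 and 49.2 CPM in those of experiment 2. Young libraries had 47.9, 44.3 and 48.2 CPM in experiment 1 and 54.2, 67.0, 78.9 and 47.8 CPM in experiment 2. It was even within experiment 1, where the SD was 6.13% of the mean in aged and 4.66% in young libraries, against 28.2% and 22.3% in experiment 2. The log2 fold change was −0.03 (SE 0.14, 95% interval −0.34 to 0.29, adjusted p = 1.0 in edgeR). Its log2 CPM had a Pearson's r of −0.71 across libraries with the share of receptor reads, the largest such value of the 8, and Cd34 followed at −0.56.

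**Figure D3:**
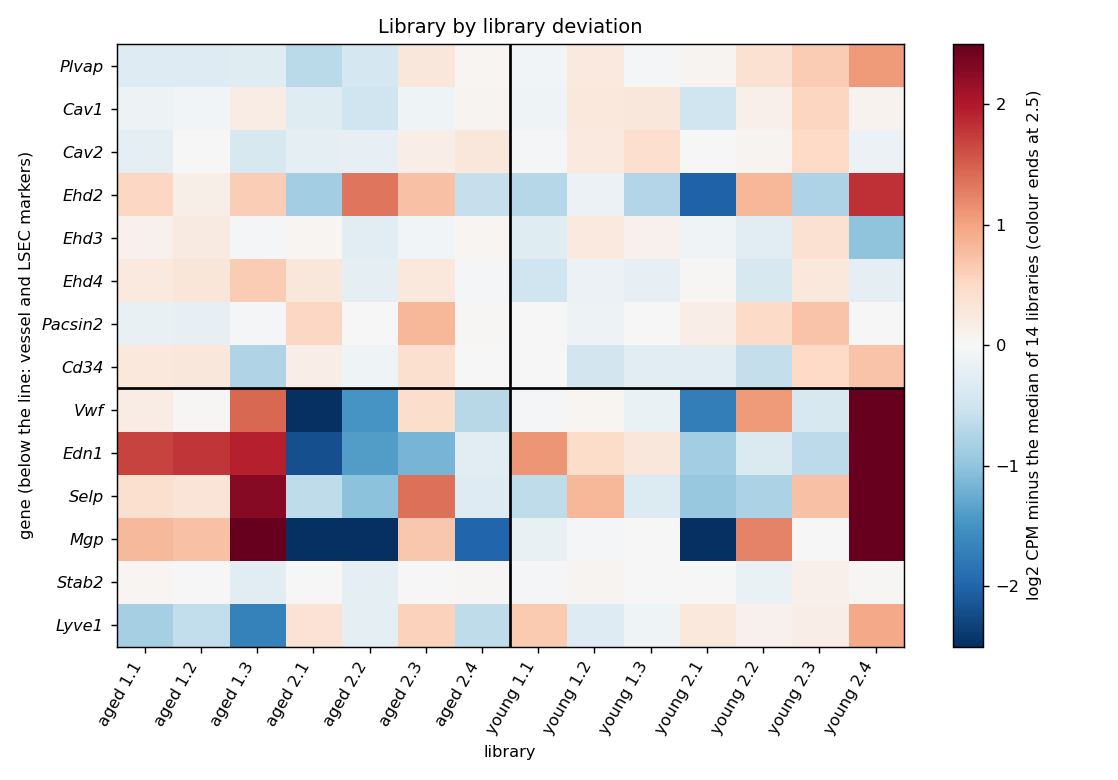
Log2 CPM of each gene in each library minus its median over the 14 libraries, aged libraries left of the vertical line and young to its right; red is above the median, blue below, and colours end at 2.5. Rows below the horizontal line are large-vessel markers (Vwf, Edn1, Selp, Mgp) and LSEC markers (Stab2, Lyve1); young 2.4 is red for Plvap, Ehd2, Cd34 and all 4 vessel markers and blue for Ehd3, while Stab2 is near 0 in every library.

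Of the 28 pairs of genes, none had a correlation across libraries that passed adjustment, and the smallest adjusted p was 0.523 by Pearson and 0.363 by Spearman. Several pairs with Plvap or Ehd3 moved when young 2.4 was left out. Plvap and Cav2 had an r of 0.44 with all 14 libraries and 0.75 without it. Plvap and Ehd3 had −0.41 with all libraries and 0.21 without it, and Ehd3 and Cav1 0.27 and 0.57. Cav1 and Cav2 kept close values, 0.58 and 0.61, although their r was 0.15 within aged and 0.75 within young libraries.

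**Figure D4:**
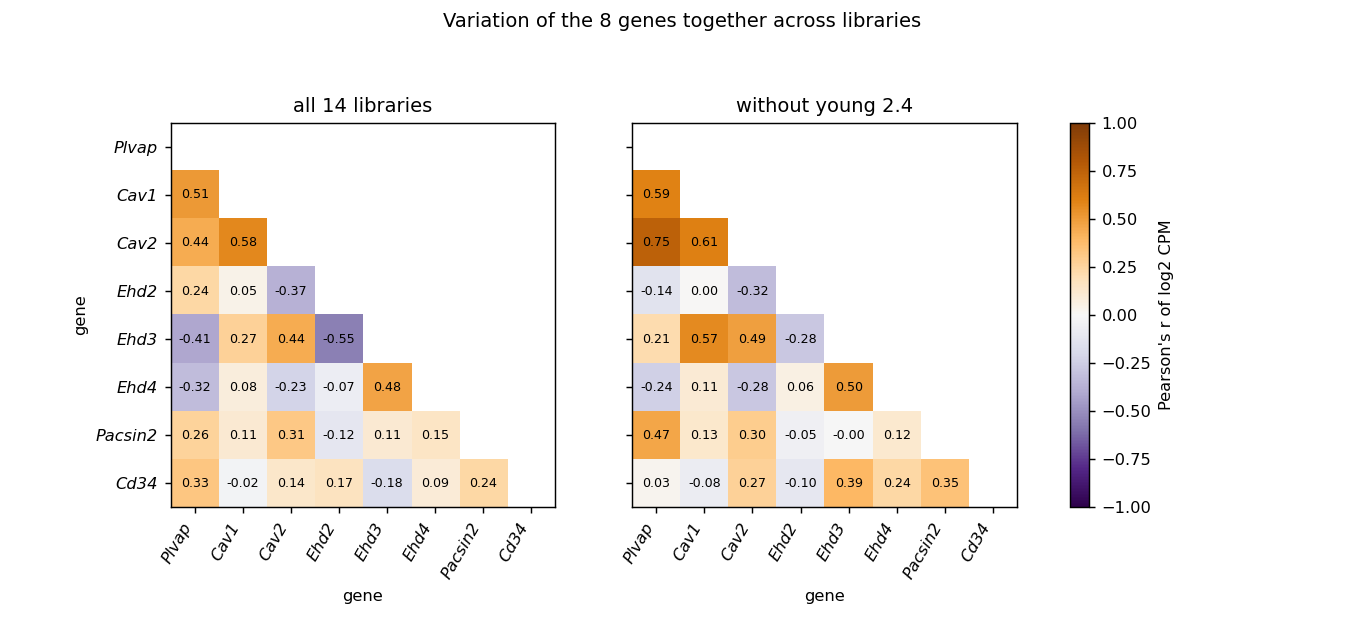
Pearson's r of log2 CPM for the 28 pairs of the 8 genes, over all 14 libraries (left) and without young 2.4 (right), with orange for positive and purple for negative values. Cav1 and Cav2 stand at 0.58 and 0.61, and the pair of Plvap and Ehd3 changes sign between the panels.

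For each gene, the targets whose levels followed it most closely over the 14 libraries were found among 10534 named targets with a mean of at least 5 CPM, as Pearson's r of log2 CPM centred within each experiment. For Plvap these were the chemokine scavenger receptor gene Ackr3 (r = 0.86) and the interferon-induced gene Oasl2 (0.86), and for Cd34 they were Cep57 (0.91) and Samd4 (0.86). Cav1 was followed by Uba3 and G3bp2 (both 0.88), and Cav2 by the sorting nexin gene Snx3 (0.91) and Rtn3 (0.90). Ehd2 was followed by Fmo2 and Cenpx (both 0.83), Ehd3 by Tcn2, for the vitamin B12 carrier transcobalamin (0.92), and Brap (0.90), Ehd4 by Fam214a (0.93) and Nsmaf (0.92), and Pacsin2 by Magt1 (0.91) and Acp6 (0.90). None of the 8 was among the 2 closest of another. Some of these relations were weak in experiment 1. There r was 0.38 for Plvap and Ackr3, 0.10 for Ehd2 and Fmo2 and 0.004 for Pacsin2 and Acp6. In experiment 2 it was 0.94, 0.96 and 0.98 for the same pairs. Others were alike in both, such as Cd34 and Cep57 at 0.91 in each. All values listed are the extremes of many over few libraries and carry no test.

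The other proteins of caveolae gave no call. Of 13 genes, 12 were matched by name and 7 had enough reads, while Cavin3, Cavin4, Cav3, Dnm1 and Ror1 did not. Of these 7, 2 were above and 5 below 0 in log2 fold change, with a median of −0.11 against 0.02 over all targets. Nos3, the endothelial nitric oxide synthase that binds caveolin-1, averaged 83.9 ± 15.4 CPM in aged libraries against 92.8 ± 18.1 CPM in young ones (SD), with a log2 fold change of −0.13 (unadjusted p = 0.296 in edgeR). Cavin1, the coat protein that stabilises the caveolin scaffold, named here after its values were seen, averaged 84.8 ± 28.8 CPM in aged libraries against 95.5 ± 25.2 CPM in young ones (SD), with a log2 fold change of −0.16 (unadjusted p = 0.515). The PACSIN2 relatives Pacsin3 and Pacsin1 were near the floor at means of 4.95 and 1.56 CPM in aged libraries against 3.21 and 1.002 CPM in young ones, with log2 fold changes of 0.50 and 0.65 (unadjusted p = 0.402 and 0.415).

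Clathrin-coated pits and endosomal recycling, the routes by which LSECs clear the blood, also gave 0 calls. Of 26 clathrin genes tested, 8 were above and 18 below 0, with a median of −0.04, and the adaptor gene Dab2, at −0.39, was 1 gene with an unadjusted p under 0.05 (unadjusted p = 0.0137). Fcho1, at 2.15, and Sh3gl1, at −0.19, came next (unadjusted p = 0.102 and 0.167). Of 15 recycling genes that work with EHD proteins, 5 were above and 10 below 0, with a median of −0.10, and Rab11a, the GTPase of the recycling endosome, stood at −0.39 (unadjusted p = 0.00703), followed by Snx1 and Rab10 at −0.18 each (unadjusted p = 0.0876 and 0.0902).

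Flotillins mark membrane rafts without caveolin. Of 7 genes in that list, 5 were above and 2 below 0, with a median of 0.27, and 4 had an unadjusted p under 0.05, all higher in aged libraries, against 4.41% of all targets, while 0 were called. They were Flot1 at 0.27 (unadjusted p = 0.0277), Flot2 at 0.17 (unadjusted p = 0.0423), the raft proteolipid gene Mal at 0.997 (unadjusted p = 0.0307) and the adaptor gene Pag1 at 1.51 (unadjusted p = 0.0464), the last of them named because it completes the count. Mal was near the floor, at 2.51 ± 1.43 CPM in aged libraries against 1.26 ± 0.45 CPM in young ones (SD). Pag1 was also low, and uneven among aged libraries, at 7.23 ± 6.47 CPM against 2.62 ± 1.43 CPM (SD). Without young 2.4, Flot2 and Mal stayed under 0.05, and Flot1 (unadjusted p = 0.0688) and Pag1 (unadjusted p = 0.0762) did not. Mal and Pag1 are known from lymphocytes, whose markers were also higher in aged libraries, and the part of those cells in these values was not tested.

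The lists that describe the endothelium around these genes gave 0 calls as well. Of 18 LSEC markers, 4 were above and 14 below 0, with a median of −0.11. Mcam, which encodes the CD146 of the sort gate, stood at −0.53 (unadjusted p = 0.00733), Lyve1 at −0.65 (unadjusted p = 0.0279) and the Fc receptor gene Fcgr2b at 0.60 (unadjusted p = 0.00998). Of 13 markers of continuous capillaries, 4 were above and 9 below 0, with a median of −0.18: the lipid carrier gene Fabp4 stood at −0.60 (unadjusted p = 0.0398), Itga6 at −0.36 (unadjusted p = 0.180) and Vwf at −1.26 (unadjusted p = 0.207). Of 17 genes that regulate permeability and fenestrae, 6 were above and 11 below 0, with a median of −0.11, and the matrix glycoprotein gene Sparc stood at −0.47 (unadjusted p = 0.00428), Rock2 at −0.21 (unadjusted p = 0.0674) and Cdc42 at −0.25 (unadjusted p = 0.0797). Young 2.4 was the highest library for Mcam, Lyve1 and Vwf. Without it Mcam stood at −0.43 (unadjusted p = 0.0224), Lyve1 at −0.57 (unadjusted p = 0.0676), Fabp4 at −0.47 (unadjusted p = 0.0870), Itga6 at −0.14 and Vwf at −0.06.

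Markers of other cells that the gate could have let through were read in the same fit, with 0 called in each list. Of 10 large-vessel markers 4 were above and 6 below 0 (median −0.04), with Clu at 1.32 (unadjusted p = 0.0166), Vwf at −1.26 and Edn1 at −1.002 (unadjusted p = 0.292). Without young 2.4, 7 of these 10 were above 0 (median 0.23), Vwf stood at −0.06 and Edn1 turned to 0.28. Of 12 fibroblast markers 9 were above 0 (median 0.38), with Pdgfrb at 0.98 (unadjusted p = 0.0288), Col1a1 at −1.39 (unadjusted p = 0.199) and Pdgfra at 0.998 (unadjusted p = 0.205). Leaving out young 2.4, 8 of these 12 were above 0 (median 0.18). Col1a1 then turned to 0.08, while Pdgfrb stood at 0.77 (unadjusted p = 0.0456) and Pdgfra at 0.68. Kupffer cell markers were above 0 in 10 of 10 (median 1.66), with Folr2 at 1.89 (unadjusted p = 0.0018), Cd163 at 2.35 (unadjusted p = 0.00263) and Vsig4 at 1.86 (unadjusted p = 0.00338). B cell markers were above 0 in 7 of 7 (median 3.22), T and NK cell markers in 7 of 9 (median 1.70), and monocyte and neutrophil markers in 7 of 7 (median 1.84). Hepatocyte markers were above 0 in 8 of 10 (median 0.53), mesothelial and adipocyte markers in 3 of 5 (median 0.12) and platelet markers in 2 of 5 (median −0.12). Some of these medians differed in sign between the experiments, by a difference that was not tested. In experiment 1 and then experiment 2 the median was 1.70 and −0.37 for hepatocyte, −0.63 and 0.99 for fibroblast, 0.78 and −0.18 for large-vessel and 3.63 and −0.01 for T and NK cell markers. It was above 0 in both for Kupffer cell markers (1.48 and 1.70), B cell markers (4.54 and 1.95) and monocyte and neutrophil markers (2.09 and 1.36).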

How the data were processed

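The authors deposited raw, unnormalised read counts per RefSeq transcript target, 1 file per library, and the submitters' processing notes name HTSeq 0.6.0 and DESeq2 1.18.1. Aligner, genome build, strand setting and how shared reads were assigned are not given in the sources read. Per the labels' protocols, total RNA (TRIzol LS) went into the Ion AmpliSeq Transcriptome kit for mouse, which amplifies a short target per gene. Reads carry no molecular identifiers here, so they are not independent molecules.

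Each file held 23930 targets and 5 summary entries written by the counter, which took 1.24 to 3.04% of reads and were left out. Names came from the RefSeq table of GRCm38.p6 for 18128 targets with their version and 4324 without, and from GENCODE for 110; the 1368 others stayed in the tests unnamed. The 8 genes matched with their version: Plvap NM_032398.2, Cav1 NM_007616.4, Cav2 NM_016900.4, Ehd2 NM_153068.3, Ehd3 NM_020578.3, Ehd4 NM_133838.4, Pacsin2 NM_001159509.1 and Cd34 NM_001111059.1.

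Counts were fitted in R 4.3.3 with edgeR 4.0.16: filterByExpr by age and experiment, TMM scaling, and the quasi-likelihood F test with experiment as a term. A model of 4 means gave the contrasts within and between experiments. P-values were adjusted by Benjamini-Hochberg over all targets tested. Each SE is the fold change divided by the root of its F statistic, and 95% intervals used a t quantile with 11 degrees of freedom. CPM were computed with TMM-scaled library sizes unless said otherwise. Exact tests used log2 CPM with a prior count of 2 and the 1400 relabellings within experiments, all two-sided. Correlations used 100000 permutations over all libraries, without regard to age or experiment. Alternatives included DESeq2 1.42.0 and limma 3.58.1 (voom). The fits were tested on simulated data.

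Named genes are the 8, the 3 with the smallest p in each list described (of the 4 leukocyte lists, the Kupffer list alone is named and the others are counted, as are 3 further lists) and, for each of the 8, the 2 targets that followed it most closely. The genes and lists were chosen with earlier results of these data known.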

Additional observations from a re-analysis of the deposited data

How the results depend on the processing

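None of the 8 genes was called under any of the 30 alternatives to the fit. Plvap stayed below 0 in all 30, from −0.72 to −0.39, with adjusted p-values from 0.0594 (DESeq2) to 1.0 and an unadjusted p under 0.05 in 28. Ehd4 stayed above 0 in all 30, from 0.15 to 0.66, with an unadjusted p under 0.05 in 25. Cav1 stayed below 0 in all 30, from −0.32 to −0.13, and Cav2 from −0.44 to −0.09. Ehd2 ranged from −0.19 to 0.94.

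The number of targets called moved from 34 to 143 with DESeq2, 58 with a term for receptor reads, 19 with no experiment term, 11 with aged 1.1 and aged 1.2 summed, 5 with a term for leukocyte markers and 0 with either experiment fitted alone (1274 and 345 targets at an unadjusted p under 0.05). Leaving out 1 library at a time gave 4 (without young 2.4) to 29 calls, including 7 without aged 2.2 and 9 without aged 1.1. For the difference between experiments DESeq2 called 1 target and edgeR 0. The causes were not tested.

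Signs turned for genes near 0. Pacsin2 stood at 0.0063 with no scaling beyond library totals and at 0.026 in experiment 2 alone, where Cd34 stood at −0.043 and Ehd2 at −0.19, and Cd34 at −0.030 without young 2.2 and aged 2.4. With the leukocyte term Cd34 stood at 0.39 (unadjusted p = 0.0955) and Cav2 at −0.09. Leaving out 1 library gave 0.022 (without aged 2.2) to 0.84 for Ehd2, −0.081 to 0.19 for Cd34, −0.13 to 0.043 for Pacsin2 and −0.041 to 0.22 for Ehd3, for which the mean difference of log2 CPM without young 2.4 was −2.4e-05. The exact p of Ehd4 was 0.05 without young 2.4, and the ratio of Plvap over Cav1 lost its threshold without young 2.2 and aged 2.4 (−0.37, exact permutation p = 0.07).

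Aged and young libraries share numbers in the labels. Deviations of same-numbered pairs correlated between −0.31 and 0.74, so the numbers were not taken as a pairing. With the replicate block 2 targets were called, and Plvap stood at −0.57 (unadjusted p = 0.00105, adjusted p = 0.199). The alternatives without young 2.4 in exact tests, ratios, correlations and lists, and 2 other filters (23 and 34 calls), were chosen after seeing the data.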
